A study of Mus musculus with 6 samples.

Results

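The genes described here are 10 members of the epidermal growth factor (EGF) system, taken by name from a table of 35275 mouse genes: the ligand genes Tgfa, Areg, Ereg, Hbegf, Btc and Nrg1, the receptor genes Egfr, Erbb2 and Erbb3, and Errfi1, which is neither ligand nor receptor and encodes an inhibitor of the receptors. Their RNA was read in ID8-KMF cells, a C57Bl6/J mouse ovarian cancer line that descends from ID8 cells passaged in animals. All 6 libraries came from cells without a functional Rgnef gene (Arhgef28, a guanine nucleotide exchange factor). In 3 libraries the knockout cells also carried a lentivirus for GFP-tagged Rgnef (GFP-Rgnef libraries), and in 3 they carried none (knockout libraries). Cells of both groups grew subconfluent on Matrigel-seeded dishes. The lentivirus, the GFP tag and Rgnef came together, so their effects cannot be told apart, and unedited parental cells were not analysed here. The labels do not say whether the 3 libraries of a group are separate cultures or how many clones they stand for, so the p-values here speak to library-to-library variation that could be purely technical.

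EGF family ligands are made as membrane-anchored precursors, and metalloproteases of the ADAM family cut them loose so that they act on the same or nearby cells. Tgfa, Areg, Ereg, Hbegf and Btc encode ligands of EGFR, while Nrg1 encodes neuregulin, which binds ERBB3 and ERBB4. Bound receptors pair and phosphorylate each other. ERBB2 has no known ligand of its own and serves as a partner, ERBB3 has a weak kinase and recruits PI3-kinase, and the RAS and ERK kinases carry the signal to the nucleus. ERBB signalling induces Errfi1, whose product (MIG6) binds the kinase domain of the receptors and shuts them down. Epithelia of the ovarian surface respond to EGFR ligands, and several of these ligand genes are themselves switched on by ERK signalling.

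Levels are in FPKM, fragments per kilobase of transcript scaled to depth, so they are per length and can be set beside each other between genes. The implied depth was 15898965 to 17977069 reads per library, and the members rested on 99 to 2533 reads per library. Arhgef28 stood at 50.02 to 57.2 FPKM in the GFP-Rgnef libraries and at 0.110 to 0.134 in the knockout libraries, as labelled. Of 10 ovarian surface and mesothelial markers 7 had a mean of at least 1 FPKM, with a summed level of 1657 to 2466 FPKM in GFP-Rgnef and 1549 to 2483 in knockout libraries. The epithelial genes Krt7 and Epcam were under 0.5 FPKM in every library. Of 6 leukocyte markers only Cd68 reached a mean of 1 FPKM (summed level 2.30 to 3.70 and 2.24 to 3.90), with Adgre1 and Cd3e at 0. Of 5 endothelial markers only Tek did (95.7 to 108.3 and 85.9 to 145.9), with Kdr at 0, and of 7 fibroblast markers Dcn, Col1a1 and Col1a2 did (49.5 to 71.2 and 39.6 to 44.4). Single markers moved with the groups inside these sums. The keratin gene Krt18 was lower in the knockout (319.8 ± 29.8 against 224.4 ± 9.21 FPKM, limma adjusted p = 0.00625), and so was Dcn (58.9 ± 13.8 against 32.8 ± 8.32, limma adjusted p = 0.0426). Col1a1 (1.79 ± 1.09 and 5.52 ± 2.95 FPKM) and Upk3b (92.3 ± 43.1 and 251.1 ± 116.7) were not called (limma adjusted p = 0.051 and 0.0878; SD, n = 3). In both groups library 3 differed from libraries 1 and 2. It had the lowest level of its group for the mesothelial gene Upk3b (42.6 FPKM against 119.5 and 114.7 with GFP-Rgnef, 116.3 against 319.1 and 317.8 in the knockout) and the highest for the collagen gene Col1a2 (2.45 against 0 and 0, 5.83 against 0.173 and 0.0768). The fibroblast list was split. Col1a1 was also highest in library 3 of each group (3.02 and 8.92 FPKM). Dcn was lowest there (43.4 against 63.6 and 69.7, 23.3 against 38.8 and 36.4). Of the mesothelial list, Krt19 was lowest there (793.7 against 1412 and 1359, 678.7 against 1309 and 1268). Wt1 moved less (180.5 against 193.3 and 200.3, 182.6 against 211.1 and 210.3). The differences of the members and the counts of the lists are therefore given with and without the libraries numbered 3, and the part of such markers in them was not tested.

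Of the 10 members, all of which passed the filter on low values, 2 were lower in knockout libraries (Tgfa and Btc), 1 was higher (Nrg1) and 7 did not pass the test. The test was limma on log2(FPKM + 1), with a call at an adjusted p below 0.05 over 11500 genes. Over all genes tested, 13.4% were called, 8.04% higher and 5.34% lower in the knockout, and the 3 calls among 10 members are read against that background, with no test of the family as a whole. The median difference (knockout minus GFP-Rgnef) was -0.258 over the members and -0.016 over all genes. In 5 members the groups' libraries did not overlap, namely Tgfa, Areg, Btc, Nrg1 and Errfi1, a pattern that 33.4% of all tested genes had. In bulk RNA, fewer cells expressing a gene and less RNA per cell cannot be told apart. None of the 10 genes lies on chromosome 7 or 9. There 470 of 1458 tested genes were higher and 15 lower in the knockout libraries, against 925 and 614 of all 11500.

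**Figure D1:**
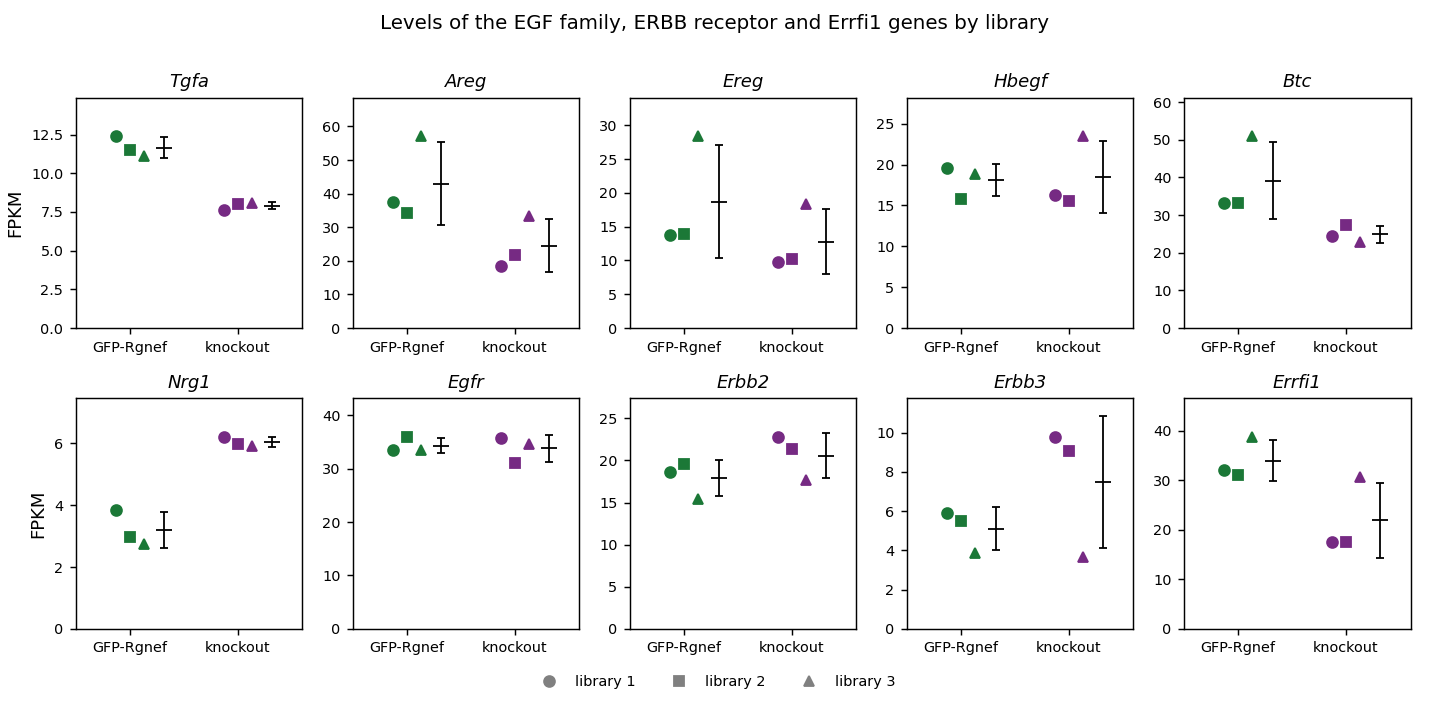
FPKM of each member gene (vertical axes from 0) in the GFP-Rgnef (green) and knockout (purple) libraries, with the library number as the marker shape and the mean ± SD of 3 libraries in black. Tgfa and Nrg1 separate the groups with little spread, while Areg, Ereg and Errfi1 are highest and Erbb3 lowest in the library numbered 3 of each group.

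The sequences before the start sites of Tgfa and Btc, the called ligand genes that were lower in the knockout, and of Areg and Errfi1, which were lower without overlap, are shown because these 4 genes share a direction. RefSeq's promoter table (GRCm38.p6) matched 6 of the 10 members, namely Tgfa, Areg, Btc, Egfr, Erbb2 and Errfi1, the last with a pair of start sites. The windows are the 250 bases before each start, at chr6:86194972-86195221 (plus strand) for Tgfa, chr5:91402995-91403244 (minus strand) for Btc, chr5:91139349-91139598 (plus strand) for Areg, and chr4:150854820-150855069 (plus strand) for the downstream start of Errfi1. Capitals mark matches, on either strand, to the cyclic AMP response element (TGACGTCA), the AP-1 site (TGANTCA), the TEAD site (GGAATG), the GC box (GGGCGG) and the TATA box (TATAAA).
Tgfa: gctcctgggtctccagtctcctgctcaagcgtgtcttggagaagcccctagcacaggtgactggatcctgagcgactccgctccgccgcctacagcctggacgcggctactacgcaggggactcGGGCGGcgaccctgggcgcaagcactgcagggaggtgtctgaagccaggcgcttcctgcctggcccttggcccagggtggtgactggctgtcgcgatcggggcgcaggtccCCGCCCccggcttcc
Btc: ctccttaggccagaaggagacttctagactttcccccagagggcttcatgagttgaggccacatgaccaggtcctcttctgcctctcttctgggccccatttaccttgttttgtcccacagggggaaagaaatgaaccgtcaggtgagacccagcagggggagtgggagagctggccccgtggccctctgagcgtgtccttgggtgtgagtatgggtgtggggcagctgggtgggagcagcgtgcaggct
Areg: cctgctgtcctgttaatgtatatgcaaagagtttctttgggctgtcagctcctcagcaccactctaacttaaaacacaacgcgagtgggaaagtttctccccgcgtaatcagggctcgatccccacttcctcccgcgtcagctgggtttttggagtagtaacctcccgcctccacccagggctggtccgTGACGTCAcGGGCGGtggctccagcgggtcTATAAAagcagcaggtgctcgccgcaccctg
Errfi1: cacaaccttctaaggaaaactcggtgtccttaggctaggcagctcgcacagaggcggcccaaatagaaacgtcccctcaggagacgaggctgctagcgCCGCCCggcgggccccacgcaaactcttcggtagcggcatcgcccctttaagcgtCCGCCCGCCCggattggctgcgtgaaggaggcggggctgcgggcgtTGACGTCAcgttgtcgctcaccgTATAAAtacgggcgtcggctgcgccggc
The Areg window holds a cyclic AMP response element at bases 61 to 54 before the start, a GC box at 52 to 47 and a TATA box at 31 to 26. Near its downstream start Errfi1 has the response element at bases 51 to 44 and a TATA box at 28 to 23, with 3 GC boxes further out (152 to 147, 97 to 92 and 93 to 88) and none between them. The response element occurs in 1.55% of the 32851 windows of this length in the table, the TATA box in 12.4%, the GC box in 32.7%, the TEAD site in 12.6% and the AP-1 site in 6.75%. Tgfa holds 2 GC boxes and none of the other motifs, and the Btc window holds none of the 5. The window of Egfr holds a GC box at bases 9 to 4. A TEAD site is in the windows of Erbb2 (bases 88 to 83) and of the upstream start of Errfi1 (bases 65 to 60, chr4:150853546-150853795). These matches describe letters only and show no binding.

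Tgfa (ENSMUSG00000029999, chromosome 6, 86195223 to 86275719, plus strand), which encodes transforming growth factor alpha, had 12.4, 11.5 and 11.1 FPKM in GFP-Rgnef libraries 1, 2 and 3 and 7.66, 8.03 and 8.06 in the knockout libraries. Every knockout library lay below every GFP-Rgnef library, and the library numbered 3 was not set apart. The ratio of the group means was 0.679, and the log2(FPKM + 1) difference was -0.50 (SE 0.0809, limma adjusted p = 0.00671). Without the libraries numbered 3 it was -0.55 (SE 0.0941, limma adjusted p = 0.00503).

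Btc (ENSMUSG00000082361, chromosome 5, 91357261 to 91402994, minus strand) encodes betacellulin, a ligand of EGFR and ERBB4. It stood at 33.2, 33.2 and 51.0 FPKM in GFP-Rgnef libraries 1, 2 and 3 and at 24.3, 27.4 and 22.9 in the knockout. The groups did not overlap, but GFP-Rgnef library 3 was far above the other GFP-Rgnef libraries. The ratio of means was 0.636 (difference -0.61, SE 0.161, limma adjusted p = 0.0432). The call was lost without GFP-Rgnef 1, GFP-Rgnef 2, knockout 1, knockout 2 or knockout 3 (limma adjusted p = 0.0522, 0.0602, 0.111, 0.0882 and 0.0884). It held without GFP-Rgnef 3, at -0.41 and 0.0315. Btc was also not called without a filter on low values, without limma's trend or after chromosome centring (limma adjusted p = 0.108, 0.0635 and 0.0752). Without both libraries numbered 3 the difference was smaller by over 1.5 times and still called (-0.35, SE 0.0808, limma adjusted p = 0.0177).

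Areg, the gene of amphiregulin (ENSMUSG00000029378, chromosome 5, 91139599 to 91148432, plus strand), was the most abundant ligand gene of the GFP-Rgnef libraries, with 37.5, 34.4 and 57.1 FPKM. The knockout libraries had 18.4, 21.8 and 33.4 FPKM. In each group library 3 was the highest, at 1.59 and 1.66 times the mean of the other libraries, and the groups did not overlap although knockout 3 came just below GFP-Rgnef 2. The ratio of means was 0.570. The difference of -0.79 (SE 0.239) did not pass the test over 6 libraries (limma adjusted p = 0.0642). It was -1.03 without knockout 3 (limma adjusted p = 0.017) and -0.81 without both libraries numbered 3 (SE 0.0951, limma adjusted p = 0.0009).

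Ereg encodes epiregulin and lies next to Areg (ENSMUSG00000029377, chromosome 5, 91074622 to 91093646, plus strand). Its values were 13.8, 13.9 and 28.4 FPKM with GFP-Rgnef and 9.74, 10.2 and 18.3 in the knockout. Library 3 was 2.05 times the mean of libraries 1 and 2 with GFP-Rgnef and 1.84 times in the knockout, so that knockout 3 lay above GFP-Rgnef 1 and 2 and the groups overlapped. The difference was -0.49 (95% interval -1.19 to 0.21, limma adjusted p = 0.34). Without GFP-Rgnef 3 it shrank to -0.17 (limma adjusted p = 0.686). Within libraries 1 and 2 alone it was -0.44 (SE 0.0869, limma adjusted p = 0.00917).

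Hbegf encodes heparin-binding EGF-like growth factor (ENSMUSG00000024486, chromosome 18, 36504927 to 36515805, minus strand). It had 19.6, 15.8 and 18.9 FPKM with GFP-Rgnef and 16.3, 15.6 and 23.5 in the knockout, and the groups overlapped. Its difference was 0.01 (95% interval -0.34 to 0.36, limma adjusted p = 0.975). The sign was negative without knockout 3 (-0.17) and without both libraries numbered 3 (-0.13), with no call (limma adjusted p = 0.361 and 0.412).

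Nrg1 (ENSMUSG00000062991, chromosome 8, 31814551 to 32884029, minus strand) moved opposite to Tgfa and Btc. It had 3.86, 2.96 and 2.75 FPKM in GFP-Rgnef libraries 1, 2 and 3, from 99 to 138 reads. The knockout libraries had 6.22, 5.98 and 5.91 FPKM, from 208 to 235 reads, each above every GFP-Rgnef library. The ratio of means was 1.89, and the difference was 0.76 (SE 0.117, limma adjusted p = 0.00592), on a scale that understates the change of low genes. With a pseudocount of 0.1 it was 0.91, and without the libraries numbered 3 it was 0.69 (limma adjusted p = 0.0067 and 0.00713). Of its exon bases 4.66% overlap Gm26578 on the opposite strand, which stood at 1.25 FPKM on average against 4.61 for Nrg1, and without strand reads there cannot be told apart. Of 8576 other genes with a mean of at least 5 FPKM, those whose log2(FPKM + 1) ran most closely with Nrg1 over the 6 libraries were Ppp2r1b (Pearson r = 0.9965), Clpb (0.9926) and Cars (0.9916). They lie on chromosomes 9, 7 and 7, and the libraries share the group difference, which all 4 genes follow.

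Summed over the 6 ligand genes, the level was 120.3, 111.7 and 169.2 FPKM in GFP-Rgnef libraries 1, 2 and 3 and 82.6, 89.0 and 112.1 in the knockout libraries. Knockout 3 thus reached the level of GFP-Rgnef 2. Areg made up 30.8 to 33.8% of the sum with GFP-Rgnef and 22.2 to 29.8% in the knockout, and Btc 27.6 to 30.1% and 20.4 to 30.8%. Hbegf took 11.2 to 16.3% and 17.5 to 20.96%, and Nrg1 1.63 to 3.21% and 5.27 to 7.52%. In mean level the GFP-Rgnef order was Areg, Btc, Ereg, Hbegf, Tgfa and Nrg1. Areg and Btc lay within their spread of each other (42.98 ± 12.3 and 39.1 ± 10.3 FPKM, SD, n = 3), as did Ereg and Hbegf (18.7 ± 8.38 and 18.1 ± 1.99). In the knockout Btc and Areg were level (24.9 ± 2.31 and 24.5 ± 7.87 FPKM), followed by Hbegf (18.5 ± 4.36), Ereg (12.8 ± 4.83), Tgfa (7.92 ± 0.226) and Nrg1 (6.04 ± 0.161).

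**Figure D2:**
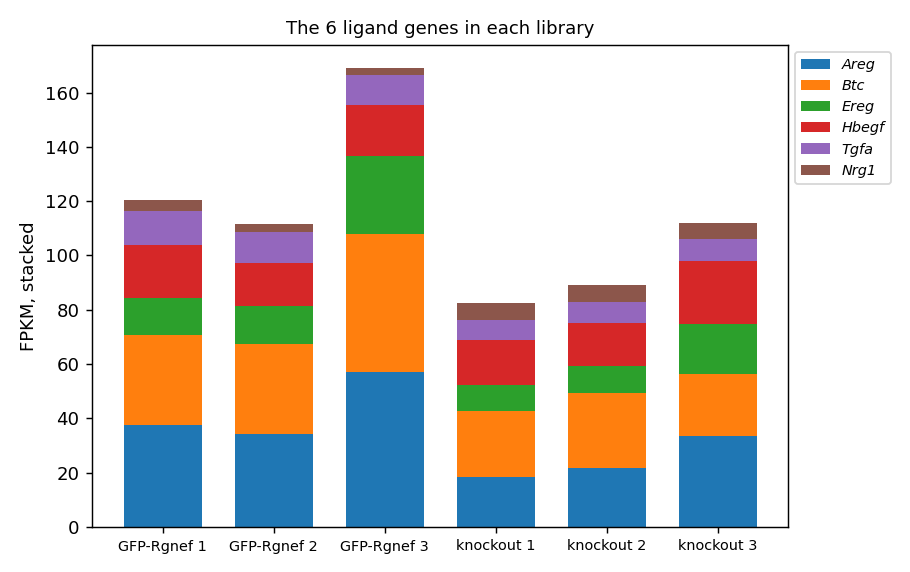
FPKM of the 6 ligand genes stacked for each library, from 0. The tallest bar is GFP-Rgnef 3 at 169.2 FPKM, and Nrg1 is the thinnest segment in every library, wider in the 3 knockout libraries (5.27 to 7.52% of the bar) than in the GFP-Rgnef libraries (1.63 to 3.21%).

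The receptor genes were led by Egfr (ENSMUSG00000020122, chromosome 11, 16752203 to 16918158, plus strand), the receptor of the 5 ligands other than neuregulin. Egfr had 33.6, 36.0 and 33.4 FPKM with GFP-Rgnef and 35.8, 31.0 and 34.7 in the knockout. The groups overlapped, and the difference of -0.02 had the narrowest interval of the 10 members, from -0.20 to 0.15 (limma adjusted p = 0.889). Without the libraries numbered 3 it was -0.06 (limma adjusted p = 0.675). Its sign turned under some scalings (0.0004 with each library divided by its FPKM sum), with no call.

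Erbb2 (ENSMUSG00000062312, chromosome 11, 98412470 to 98437716, plus strand), the receptor without a known ligand, had 18.6, 19.5 and 15.5 FPKM with GFP-Rgnef and 22.8, 21.3 and 17.6 in the knockout. Each library numbered 3 was the lowest of its group, and the groups overlapped only because of knockout 3. The difference was 0.19 (95% interval -0.08 to 0.47, limma adjusted p = 0.343), and 0.20 without the libraries numbered 3 (limma adjusted p = 0.117). Of its exon bases 0.173% overlap Mien1 on the opposite strand.

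Erbb3 (ENSMUSG00000018166, chromosome 10, 128567523 to 128589652, minus strand), the neuregulin receptor, varied most among the receptors. It stood at 5.92, 5.51 and 3.87 FPKM with GFP-Rgnef and at 9.78, 9.04 and 3.64 in the knockout. Knockout 1 and 2 were the highest libraries and knockout 3 the lowest of all 6, at 0.387 times the mean of knockout 1 and 2, while GFP-Rgnef 3 was at 0.677 times. The difference was 0.40 (95% interval -0.30 to 1.10, limma adjusted p = 0.445). It was 0.79 without knockout 3 (limma adjusted p = 0.0196) and 0.63 without both libraries numbered 3 (SE 0.101, limma adjusted p = 0.00367). Erbb4, the other neuregulin receptor, had a mean of 0.00363 FPKM with GFP-Rgnef and 0.0105 in the knockout and was not tested.

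Errfi1 (ENSMUSG00000028967, chromosome 4, 150853919 to 150868892, plus strand), the feedback inhibitor, had 32.0, 31.1 and 38.7 FPKM with GFP-Rgnef and 17.5, 17.5 and 30.7 in the knockout. Knockout 3 was 1.75 times the mean of knockout 1 and 2 and came just below GFP-Rgnef 2, so the groups did not overlap. The ratio of means was 0.645 and the difference -0.65 (SE 0.203), which did not pass the test (limma adjusted p = 0.0711). Without knockout 3 it was -0.91 (limma adjusted p = 0.00304), and without both libraries numbered 3 it was -0.82 (SE 0.0742, limma adjusted p = 0.000226).

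**Figure D3:**
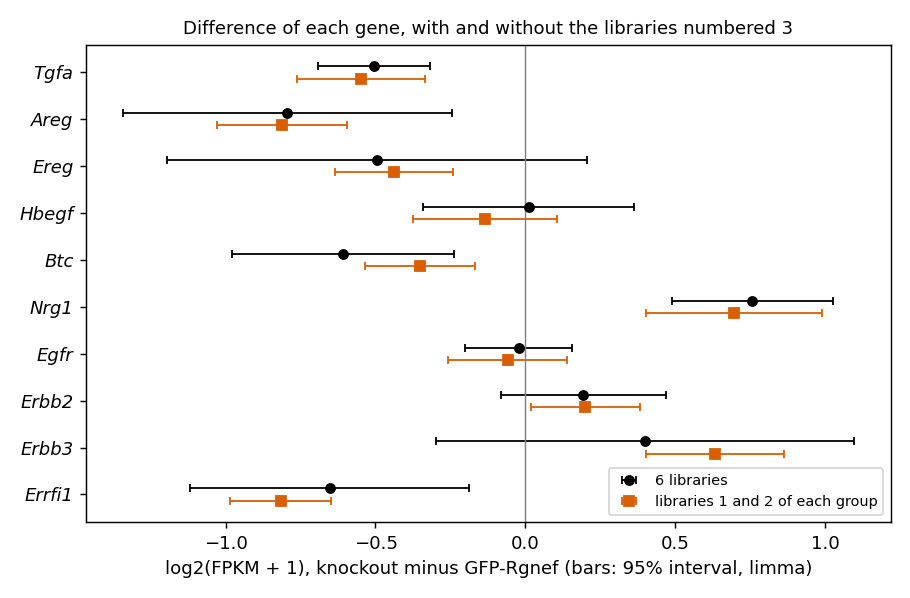
Difference of each member on the log2(FPKM + 1) scale, knockout minus GFP-Rgnef (horizontal axis), with its 95% interval from limma, over 6 libraries (black) and over libraries 1 and 2 of each group (orange). Tgfa, Btc and Nrg1 are called in both. Leaving out the libraries numbered 3 was a choice made after the values were seen. With it the intervals of Areg, Ereg, Hbegf, Btc, Erbb2, Erbb3 and Errfi1 narrow, and those of Tgfa, Nrg1 and Egfr widen.

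Over libraries 1 and 2 of each group, a choice made after the values were seen, 5 members were lower in the knockout (Tgfa, Areg, Ereg, Btc and Errfi1) and 2 were higher (Nrg1 and Erbb3). Among the genes tested there 20.4% were called, against 13.4% with 6 libraries. Within each group, library 3 was above the mean of libraries 1 and 2 for Areg, Ereg, Hbegf and Errfi1 and below it for Erbb2, Erbb3 and Nrg1. Btc went apart, with 1.54 times that mean with GFP-Rgnef and 0.885 times in the knockout. Tgfa (0.932 and 1.03 times) and Egfr (0.962 and 1.04 times) stayed near it in both groups.

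**Figure D4:**
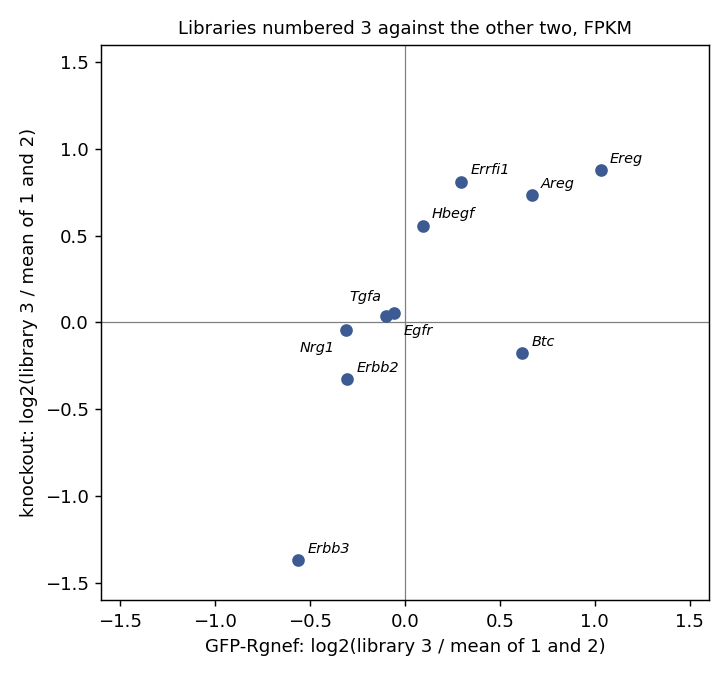
Log2 ratio of library 3 to the mean of libraries 1 and 2 for each member, in GFP-Rgnef (horizontal axis) and in knockout libraries (vertical axis). Ereg, Areg and Errfi1 lie at the upper right (library 3 higher in both groups), Erbb3 at the lower left (0.677 and 0.387 times), and Btc at the lower right.

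Position was not part of how the members were chosen. Areg and Ereg lie 45953 bases apart on chromosome 5, and Btc lies further along the same chromosome. Epgn, a further EGFR ligand gene of that cluster, had a mean of 0.169 FPKM with GFP-Rgnef and 0.143 in the knockout and was not tested. Within 200 kb of any member 43 protein-coding genes were tested, other members included, and 6 were called, beside 13.4% of all genes. Near Ereg this was Cxcl1, a neutrophil chemokine gene that fell from 66.3 ± 19.7 to 27.1 ± 12.95 FPKM (limma adjusted p = 0.03), and near Btc it was Parm1, which fell from 3.198 ± 0.347 to 1.601 ± 0.176 (limma adjusted p = 0.00762, SD, n = 3). Park7 near Errfi1, a gene linked to protection from oxidants, fell by 0.35 on the log2 scale (limma adjusted p = 0.00944). Stard3, a cholesterol transport gene near Erbb2, fell by 0.37 and Cystm1 near Hbegf by 0.25, while Pcyox1 near Tgfa rose by 0.23 (limma adjusted p = 0.0479, 0.0479 and 0.0495). None of 18 tested genes near Erbb3 was called. Without the libraries numbered 3, 9 of the 43 genes were called, beside 20.4% of all genes tested there. Among the 9 were 5 of these 6 (not Pcyox1), Areg and Ereg, and Zc3h10 and Myl6 near Erbb3.

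Among the other EGF ligands and receptors, Egf, Epgn, Nrg3 and Erbb4 were below the filter, and Nrg2 and Nrg4 were not called. Nrg2 had 0.987 ± 0.309 FPKM with GFP-Rgnef and 0.849 ± 0.232 in the knockout, and Nrg4 1.04 ± 0.296 and 0.737 ± 0.484 (limma adjusted p = 0.751 and 0.489, SD, n = 3). Exons of Nrg4 overlap Fbxo22 on the opposite strand, which is far more abundant. Of 10 tested genes for ligand shedding 2 rose and 0 fell, beside 8.04% higher and 5.34% lower over all genes, with a median of 0.028. Adam10, the protease that releases betacellulin and EGF, went from 69.1, 78.3 and 94.1 FPKM in GFP-Rgnef libraries to 101.2, 107.1 and 120.9 in the knockout (difference 0.45, limma adjusted p = 0.04). Adam10 lies on chromosome 9 and was not called when each chromosome's median deviation was removed (limma adjusted p = 0.472), nor without any 1 library other than GFP-Rgnef 3. Rhbdl2, a rhomboid protease of the membrane, rose from 2.13 ± 0.112 to 4.79 ± 1.26 FPKM (limma adjusted p = 0.00973).

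Adaptors and effectors of the receptors went both ways, with 3 of 22 higher and 2 lower (median 0.045), beside 13.4% of all genes called. All 3 that rose lie on chromosome 7 or 9, as do 470 of the 925 genes that were higher among all genes tested. They include Gab2, a docking protein that binds PI3-kinase and the phosphatase SHP2, which rose from 0.668 ± 0.0978 to 2.29 ± 0.0686 FPKM (limma adjusted p = 0.00193), and Pik3cb, a catalytic subunit of PI3-kinase, from 23.5 ± 2.16 to 32.8 ± 4.57 (limma adjusted p = 0.036). The third was Nck1, from 11.2 ± 1.17 to 14.6 ± 0.975 FPKM (limma adjusted p = 0.0492), which was not called with any 1 library left out. With each chromosome's median removed, Gab2 stayed called and Pik3cb did not (limma adjusted p = 0.471). The adaptor gene Nck2 fell from 49.05 ± 2.15 to 33.5 ± 2.81 FPKM and Pik3r2, a regulatory subunit of PI3-kinase, from 91.2 ± 2.47 to 71.1 ± 6.83 (limma adjusted p = 0.00512 and 0.0242). With 1 library left out, at most 2 of these genes rose and at least 1 fell. Pik3r2 lost its call without GFP-Rgnef 1, GFP-Rgnef 2 or knockout 2, and Pik3cb without any 1 library other than knockout 3.

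Of 12 genes for RAS, RAF, MEK and ERK 2 rose and 0 fell (median 0.052), beside 8.04% higher and 5.34% lower over all genes. Hras, a RAS isoform, rose from 55.1 ± 1.02 to 73.3 ± 1.29 FPKM and Map2k1, which encodes MEK1, from 88.6 ± 1.799 to 118.0 ± 4.47 (limma adjusted p = 0.00462 and 0.00489). Hras is on chromosome 7 and Map2k1 on chromosome 9, and both lost the call when each chromosome's median deviation was removed (limma adjusted p = 0.149 and 0.296). Receptor turnover genes and inhibitors were called in 3 of 21 cases, 1 higher and 2 lower (median -0.024), beside 13.4% of all genes called. Nedd4, a ubiquitin ligase on chromosome 9, rose from 350.2 ± 21.3 to 450.7 ± 11.9 FPKM, with no call without GFP-Rgnef 2 or after that removal. Cd82, a tetraspanin that restrains EGFR, fell from 88.1 ± 5.94 to 57.9 ± 8.99 FPKM, and Ptprj, a receptor phosphatase, from 19.9 ± 0.951 to 14.9 ± 1.54 (limma adjusted p = 0.00928, 0.0112 and 0.0242). Neither of those that fell was called without GFP-Rgnef 2 or without knockout 2. Ptprj also lost its call without GFP-Rgnef 1, GFP-Rgnef 3 or knockout 3. Over libraries 1 and 2 of each group, where 20.4% of all genes were called, 2 turnover genes and inhibitors rose and 4 fell. There 3 of the RAS to ERK genes rose and 0 fell. The numbers for shedding (2 and 0) and for adaptors and effectors (3 and 2) were as with 6 libraries.

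Genes that ERK signalling switches on were lower in the knockout in 5 of 15 cases and higher in 0, with a median of -0.256, beside 5.34% of all genes lower. The list was drawn up with earlier results of these data known, so its direction is no independent evidence. Spry4, an inhibitor of receptor signalling, fell from 3.68, 5.29 and 4.85 FPKM in GFP-Rgnef libraries to 1.61, 1.44 and 2.36 in the knockout (limma adjusted p = 0.00684). Etv4, a transcription factor of the ETS family, fell from 119.8, 126.2 and 116.1 to 66.8, 55.6 and 81.96 FPKM (limma adjusted p = 0.00543). Its relative Etv5 fell from 20.8 ± 1.40 to 14.05 ± 2.34 and Ier3, an early response gene, from 146.5 ± 12.3 to 92.5 ± 5.25 (limma adjusted p = 0.022 and 0.00243). Etv5 was not called without GFP-Rgnef 1 or 2 or without knockout 1 or 2, nor without a filter on low values (limma adjusted p up to 0.0844). The phosphatase gene Dusp4 fell from 41.8, 43.5 and 46.1 FPKM to 24.5, 21.8 and 37.0 (limma adjusted p = 0.0358). Dusp4 was not called without GFP-Rgnef 1, 2 or 3 or without knockout 1 or 2. It also lost the call without a filter on low values, without limma's trend or after chromosome centring. Dusp6, a phosphatase for ERK, was not called (difference -0.10, limma adjusted p = 0.644), and neither was Spry2 (-0.09, 0.508). Ccnd1 and Spry1 had positive differences (0.59 and 0.36), with no call (limma adjusted p = 0.0695 and 0.154). With 1 library left out 3 to 6 of the 15 fell, the lower number when the library was numbered 1 or 2, in either group. Over libraries 1 and 2 of each group 7 fell and 1 rose, beside 20.4% of all genes called there in either direction.

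**Figure D5:**
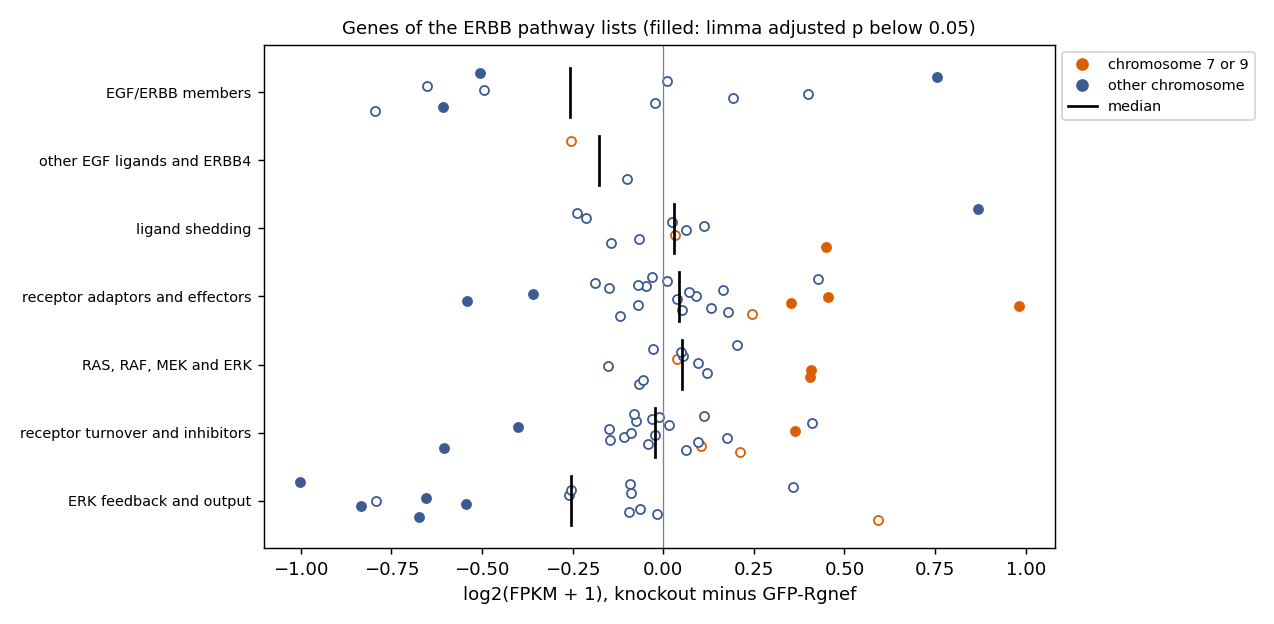
Differences on the log2(FPKM + 1) scale, knockout minus GFP-Rgnef, of every tested gene of the 10 members and 6 further lists (rows), filled where the limma adjusted p was below 0.05, orange on chromosome 7 or 9, with each list's median as a black line. The members and the ERK output genes have medians of -0.258 and -0.256, and the filled orange points are all on the right.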

How the data were processed

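Libraries of poly-T selected RNA used a NEBNext Ultra kit (per the labels). Values are FPKM for 35275 Ensembl genes in 6 libraries, in the table as deposited. The submitters' processing notes name CASAVA 1.8, TopHat2 2.0.9, DESeq2 and the build mm10; which tool did what, the annotation and the use of strand are not given in the sources used here. All columns were used. Groups and replicate numbers came from the titles. GENCODE mouse release M 21 (GRCm38, the assembly of mm10) gave symbols for 34490 genes, coordinates and exon overlaps. A length that made all values whole reads within 0.02 was found for all 19655 genes above 0 (the annotated exon length for 4228, otherwise the smallest), so reads and depth could be recovered. Counting error is larger for genes with few reads.

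In R 4.3.3, limma 3.58.1 (with trend) was fitted to log2(FPKM + 1) of the 11500 genes whose mean FPKM reached 0.5. It was tried only on simulated independent libraries, with the same spread setting for every gene. These do not hold the shared deviation of the libraries numbered 3, so the simulation cannot show how the p-values behave here. The p-values were adjusted over all these genes by Benjamini-Hochberg. Differences are knockout minus GFP-Rgnef. Named genes are the 10 members, Arhgef28, up to 4 called genes of each pathway list by smallest p (filled up to 2 by abundance), called genes within 200 kb of a member, and the 3 genes with the highest Pearson correlation with the member of smallest p. Dusp4, Dusp6, Spry2, Ccnd1, Spry1, Nck1 and the genes named as untested or as markers were named outside this rule, after their values were seen. Members and lists were chosen with earlier results of these data known. Alternatives were the pseudocount, filters, scaling, trend, replicate block, each library left out, voom on recovered reads, chromosome centring and, added after the data were seen, leaving out both libraries numbered 3. Tables and plots used pandas 2.3.3, numpy 2.4.6 and matplotlib 3.10.9 in Python 3.11.15.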

Additional observations from a re-analysis of the deposited data

How the results depend on the processing

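Tgfa and Nrg1 kept their call and direction in every alternative that tested them (16 and 15), with limma adjusted p of 0.00249 to 0.034 and 0.000866 to 0.0311, while Btc was called in 8 of 16 (0.00833 to 0.111). The number of members lower in the knockout was 2, and 1 without a filter, without limma's trend or after chromosome centring. It was 1 to 3 with 1 library left out and 5 without both libraries numbered 3. The number higher was 1, and 0 with the filter at 5 FPKM, where Nrg1 was not tested, 1 to 2 with 1 library left out and 2 without both libraries numbered 3. Over all genes, 925 rose and 614 fell; with 1 library left out 458 to 848 rose and 198 to 580 fell, after chromosome centring 494 and 388, without a filter 394 fell, and without both libraries numbered 3 1059 fell. The sign of Hbegf turned with 1 library left out (-0.17 to 0.11) and without both libraries numbered 3 (-0.13), and that of Egfr with 1 library left out (-0.0642 to 0.037), with TPM scaling (0.0004) and after chromosome centring (0.0446). The cause was not tested. The labels do not say whether a replicate number marks a shared batch. Deviations of libraries numbered 1, 2 and 3 correlated across the groups by 0.321, -0.02 and 0.552. Libraries of different numbers correlated by -0.523 to 0.399, a range that holds the values of numbers 1 and 2. Pairing was therefore not shown for every number and the fit without it was kept, while the libraries numbered 3 did deviate together. With the number as a replicate block 1517 genes rose and 1253 fell, and 5 members were lower and 1 higher: Areg, Ereg and Errfi1 joined Tgfa, Btc and Nrg1 (limma adjusted p = 0.000104, 0.00163 and 0.0011), so their calls depend on this choice. Among the members, reads limit Nrg1 most, at 99 to 235 per library. The called pathway genes Rhbdl2 and Gab2 rested on 34 to 102 and 53 to 255 reads.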
